A study of Homo sapiens with 3 samples.

Results

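The replication-dependent histone genes were examined in 3 human keratinocyte lines. They were taken as all rows of the deposited expression table whose symbol begins with HIST1H, HIST2H, HIST3H or HIST4H, which gave 89 of 57773 rows. By GENCODE release 29, 71 of the 89 are protein-coding and 18 are pseudogenes. The rows divide into 8 of type H1, 22 of H2A, 26 of H2B, 17 of H3 and 16 of H4. By cluster, 67 carry a HIST1 name, of which 65 lie on chromosome 6 and the pseudogenes HIST1H2APS6 and HIST1H2BPS3 on chromosome 13. Another 17 belong to HIST2 on chromosome 1, 4 to HIST3 on chromosome 1 and 1 to HIST4 on chromosome 12.

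All 3 lines descend from HaCaT, a spontaneously immortalised human skin keratinocyte line, and all 3 carry the oncogenic HRasG12V mutant. On that background the first line expressed THG-1 S264A, a serine-to-alanine mutant. The second expressed wild-type THG-1 (WT), and the third carried the empty vector. THG-1 is the protein product of TSC22D4. Total RNA of the cultured lines (DMEM, fetal bovine serum) was sequenced as 1 library per line, so the data hold no spread between replicates and no p-value is given for any value. The sources used here give neither the number of clones behind a line nor the promoter driving the transgene.

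Histone genes of these clusters are transcribed mainly while DNA is being copied, when new chromatin needs new histones. H2A, H2B, H3 and H4 form the core particle around which DNA is wound, and H1 binds the linker DNA between particles. Most of their transcripts have no introns and end, not in a poly(A) tail, but in a conserved stem-loop that is bound by the protein SLBP. Many genes encode each type, and several encode the very same protein.

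The stem-loop is shown because it is a known feature of these transcripts that the rule for choosing them did not use. A search for its 16 bases in the GENCODE transcripts found it in 35 of the 89 rows, all of H2A, H2B, H3 or H4. Of the 37 coding rows with an annotated transcript longer than the coding part, 32 had it. HIST1H1E, HIST1H1T, HIST1H2BA, HIST1H2BJ and HIST1H4C had no match in the annotated transcript. The added length could lie at either end, so an annotated 3′ end was not required. The stem-loop came in 6 forms, which are written 5′ to 3′ with the bases of the loop in capitals.
form in 18 rows of H2A, H2B and H3: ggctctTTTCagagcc
form in 5 rows of H2B and H3: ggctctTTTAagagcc
form in 3 rows of H2A and H2B: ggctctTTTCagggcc
form in 5 rows of H4: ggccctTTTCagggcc
form in 3 rows of H4: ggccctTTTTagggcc
form in HIST1H3E: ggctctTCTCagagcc
All 8 H4 rows with a match had a stem that begins ggccct, and HIST1H3E was the row with a C at the second base of its loop.

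The libraries differed in depth. The depth to which the RPKM of each library was scaled was worked back from the steps in the values. It was 14022885 reads for S264A, 12733479 for WT and 32055052 for the empty vector, the last being 2.52 times the depth of WT. One read on a gene of 1 kb stood for 0.0713 RPKM (read count scaled to gene length and library depth) in the S264A library, 0.0785 in the WT library and 0.0312 in the empty-vector library. TSC22D4 had 51.1 RPKM in S264A, 64.9 in WT and 7.98 in the empty vector. All 7 listed keratinocyte markers reached 1 RPKM, with sums of 1083, 1154 and 831 RPKM in S264A, WT and empty vector. Of the markers of other cells, 1 of 3 endothelial, 0 of 5 fibroblast, 1 of 6 immune and 1 of 5 melanocyte genes reached 1 RPKM in any library (VWF, CD68 and MITF).

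Histone rows were among the highest of the table by RPKM. Ranks by RPKM depend on the length used for each row. Of the 200 rows with the highest RPKM, 45 were histone rows in S264A, 37 in WT and 45 in the empty vector. The 89 rows together held 135047 reads (0.963% of the library) in S264A, 108339 (0.851%) in WT and 320944 (1.00%) in the empty vector. Because histone genes are short, their share of the summed RPKM was larger, at 5.19% in S264A, 4.17% in WT and 5.44% in the empty vector. Of the 89 rows, 81 were above 0 in at least 1 library, 66 reached 1 RPKM in every library and 41 reached 100 RPKM in every library. The 8 rows at 0 throughout were 7 pseudogenes and HIST1H4G, which the annotation lists as coding.

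The sum over all histone rows was 14213 RPKM in S264A, 12355 RPKM in WT and 14433 RPKM in the empty vector. WT was the lowest of the 3 lines for every histone type. On the log2 scale the sum differed by -0.22 for WT against empty vector, -0.02 for S264A against empty vector and 0.20 for S264A against WT. The ratio of sums was 0.856 for WT against empty vector, with a 95% interval of 0.850 to 0.863 that covers counting error only, and 1.15 (1.14 to 1.16) for S264A against WT. Fewer cells in S phase and less histone mRNA per cell cannot be told apart in bulk RNA. A culture of the same line was not repeated, so a difference between lines cannot be told apart from one between cultures.

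The core histone types gave sums of like size, and H1 gave a smaller one. H2A summed to 3762 RPKM in S264A, 3217 in WT and 3709 in the empty vector. H2B summed to 2953 RPKM in S264A, 2643 in WT and 2962 in the empty vector. H3 summed to 2883 RPKM in S264A, 2373 in WT and 2851 in the empty vector. In RPKM as deposited, these 3 types were thus close between S264A and empty vector and lower in WT. H4 summed to 2797 RPKM in S264A, 2398 in WT and 2873 in the empty vector. H1 summed to 1820 RPKM in S264A, 1722 in WT and 2039 in the empty vector. The log2 ratios of WT to empty vector lay between -0.26 (H3 and H4) and -0.16 (H2B), and those of S264A to WT between 0.08 (H1) and 0.28 (H3). The plot of sums by type shows this pattern with the part of H3 that came from HIST1H3C, the row with the largest difference.

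**Figure D1:**
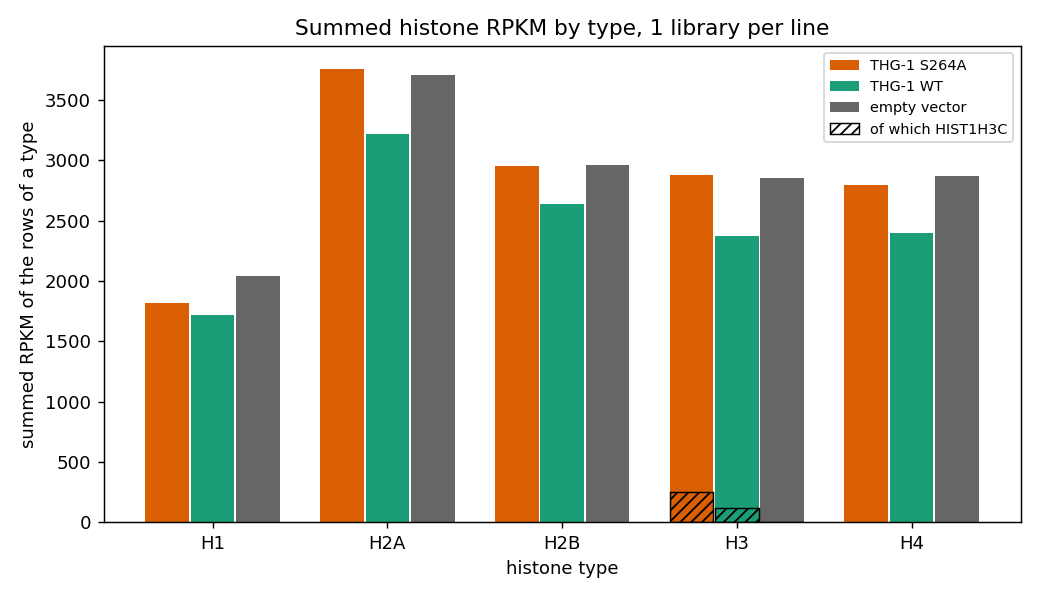
Summed RPKM (y axis, from 0) of the rows of each histone type (x axis) in the S264A, WT and empty-vector libraries, 1 library each, with the part from HIST1H3C hatched. WT has the lowest bar of each type, and HIST1H3C makes up 8.61% of the H3 sum in S264A, 5.0% in WT and 0.196% in the empty vector.

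By cluster, HIST1 rows summed to 11532 RPKM in S264A, 10023 in WT and 11582 in the empty vector, and HIST2 rows to 2441, 2085 and 2646 RPKM in the same order of lines. The 4 HIST3 rows were not lowest in WT, with 217 RPKM in S264A, 231 in WT and 190 in the empty vector, nearly all from HIST3H2A and HIST3H2BB. The HIST3 log2 ratio of 0.28 for WT against empty vector was 0.01 at the same upper quartile, and that of S264A against empty vector was 0.19 as deposited and -0.01 at the same upper quartile. HIST3H2BB, an H2B gene, had 137 RPKM in S264A, 147 in WT and 112 in the empty vector. HIST4H4, the H4 gene that stands alone on chromosome 12, had 23.0 RPKM in S264A, 16.2 in WT and 14.8 in the empty vector. Its log2 ratio of 0.13 for WT against empty vector was -0.13 at the same upper quartile and -0.03 at the same sum.

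Row by row, differences were taken as log2 of the ratio of RPKM + 1, for rows that reached 1 RPKM in either library of the pair, and a row was counted as higher or lower from a 2-fold difference on that scale. The scale understates the change of low rows. In WT against empty vector, 1 of 69 histone rows was higher (HIST1H3C) and 3 were lower (HIST2H3D and the pseudogenes HIST1H2APS3 and HIST1H4PS1), where 4.53% of all 11993 genes were higher and 1.54% were lower. Most histone rows differed little and in the same direction, since 50 of the 69 were within 0.5 of 0 and 56 (81.2%) were below 0. Over all genes 50.5% were below 0. The median was -0.20 for the histone rows and -0.01 for all genes.

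In S264A against empty vector, 4 of 72 histone rows were higher (HIST1H3C, HIST1H2BB, HIST1H3E and HIST1H4F) and 1 was lower (HIST1H4PS1). Of all 12010 genes 2.99% were higher and 0.824% were lower. HIST1H2BB, HIST1H4F and HIST1H4PS1 reached 1 RPKM in only 1 library of this pair. HIST1H4F rested on 6 reads in S264A and 0 in the empty vector, and HIST1H4PS1 on 2 and 20. The histone rows were otherwise spread about 0, with 34 of 72 below it, a median of 0.02 and the same median of 0.02 over all genes. In S264A against WT, 2 of 71 histone rows were higher (HIST1H2BB and HIST1H3C) and 0 were lower, beside 1.55% higher and 2.23% lower among all 12069 genes. There 10 of the 71 rows (14.1%) were below 0, against 47.7% of all genes, and the medians were 0.22 for histone rows and 0.02 for all genes. The comparisons share libraries, so they are not independent of each other.

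The split of calls over all genes depended on the scaling. With the libraries set to the same upper quartile, 3.20% of genes were higher and 3.00% lower in WT against empty vector, and 2.14% were higher and 1.46% lower in S264A against empty vector. With the libraries set to the same sum, 3.62% were higher and 2.15% lower in WT against empty vector. Upper-quartile scaling moved the median of all genes to -0.23 in WT against empty vector and -0.15 in S264A against empty vector, and equal-sum scaling moved it to -0.14 in WT against empty vector and 0.12 in S264A against WT. The histone median in WT against empty vector was then -0.46 by upper quartile and -0.35 by equal sum, below the median of all genes under each. HIST1H3C was higher in all 3 comparisons under both scalings.

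**Figure D2:**
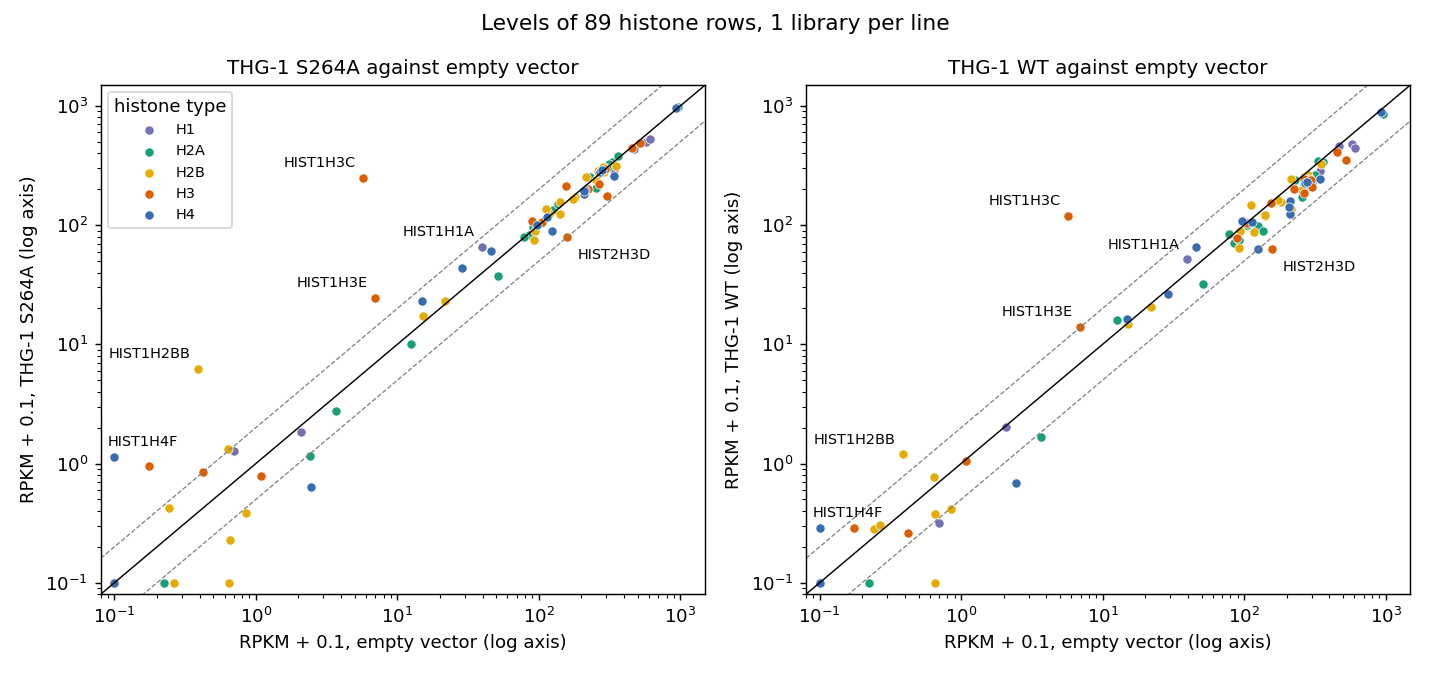
Each point is 1 of the 89 histone rows, with its RPKM + 0.1 in S264A (left panel) or WT (right panel) on the y axis and in the empty vector on the x axis, both log axes, coloured by type; the solid line marks equal levels and the dashed lines a 2-fold difference. Most rows lie along the line of equal levels, and HIST1H3C stands apart at 5.57 RPKM in the empty vector, against 248 RPKM in S264A and 119 RPKM in WT.

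HIST1H3C, which encodes the canonical histone H3 also called H3.1, was the row that separated the lines. It had 248 RPKM (1597 reads) in S264A, 119 RPKM (694 reads) in WT and 5.57 RPKM (82 reads) in the empty vector. The ratio was 44.5 for S264A against empty vector (95% counting interval 35.7 to 56.3) and 21.3 for WT against empty vector (16.9 to 27.1). On the log2 scale the differences were 5.24 and 4.19. HIST1H3C ranked at place 1 of 12010 genes from the top in S264A against empty vector and at place 12 of 11993 in WT against empty vector. S264A was also above WT, with a ratio of 2.09 (1.91 to 2.29).

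The other HIST1 H3 genes, which encode the same 136-residue protein in 10 genes including HIST1H3C, did not share this pattern except for HIST1H3E. HIST1H3C was at place 5 of the 11 HIST1 H3 rows by level in S264A, at place 7 in WT and at place 10 in the empty vector. It made up 10.3% of the HIST1 H3 sum in S264A, 6.10% in WT and 0.249% in the empty vector. Without HIST1H3C the H3 sum was 2635 RPKM in S264A, 2255 in WT and 2845 in the empty vector, a log2 ratio of -0.34 for WT against empty vector in place of -0.26 and of -0.11 in place of 0.02 for S264A against empty vector. The levels of H3 without this row thus put S264A below the empty vector, where the full sum put it slightly above in RPKM as deposited, and below at the same upper quartile (-0.19) and at the same sum (-0.03).

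HIST1H3E, an H3 gene elsewhere in the same cluster, had 24.5 RPKM (159 reads) in S264A, 13.9 RPKM (82 reads) in WT and 6.82 RPKM (101 reads) in the empty vector. Its ratio to the empty vector was 3.60 (2.79 to 4.66) in S264A and 2.04 (1.51 to 2.76) in WT, and its log2 differences were 1.71 and 0.93. The order of the lines was that of HIST1H3C, at a lower level. HIST1H3B and HIST1H3H, the H3 genes with the highest RPKM, showed no such order. HIST1H3B had 485 RPKM in S264A, 352 in WT and 521 in the empty vector, and HIST1H3H had 446 RPKM in S264A, 414 in WT and 454 in the empty vector. HIST1H3F had 295 RPKM in S264A, 237 in WT and 295 in the empty vector.

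HIST1H2BB, an H2B gene, lies next to HIST1H3C on chromosome 6 on the opposite strand, with the start sites of the pair facing away from each other. Between them the annotation holds only HIST1H2APS5, a pseudogene not analysed here. HIST1H2BB had 6.12 RPKM (37 reads) in S264A, 1.09 RPKM (6 reads) in WT and 0.290 RPKM (4 reads) in the empty vector. Its ratio was 21.1 (7.60 to 81.7) for S264A against empty vector, 3.78 (0.896 to 18.2) for WT against empty vector and 5.60 (2.34 to 16.2) for S264A against WT. The interval for WT against empty vector includes 1, so a difference was not detectable at this depth.

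The genes on the outer sides of this pair did not follow it. HIST1H2AB, the H2A gene beyond HIST1H2BB, had 134 RPKM in S264A, 97.6 in WT and 126 in the empty vector. HIST1H1C, the H1 gene beyond HIST1H3C, had 525 RPKM in S264A, 447 in WT and 610 in the empty vector. By the distance between pairs of log2 differences against empty vector, over 3 libraries, the histone rows most like HIST1H3C were HIST1H2BB at 4.46, HIST1H3E at 4.81, HIST1H4F at 5.77, HIST1H1A at 5.91 and the pseudogene HIST1H3PS1 at 6.02. The nearest row thus lay 4.46 log2 units away, beside a difference of 5.24 for HIST1H3C itself in S264A. No filter on low values was set for this ranking. HIST1H4F held 6 reads in S264A, 1 in WT and 0 in the empty vector, and HIST1H3PS1 held 5, 1 and 1. The plot along the cluster shows HIST1H2BB and HIST1H3C side by side above rows that mostly lie within 1 of 0.

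**Figure D3:**
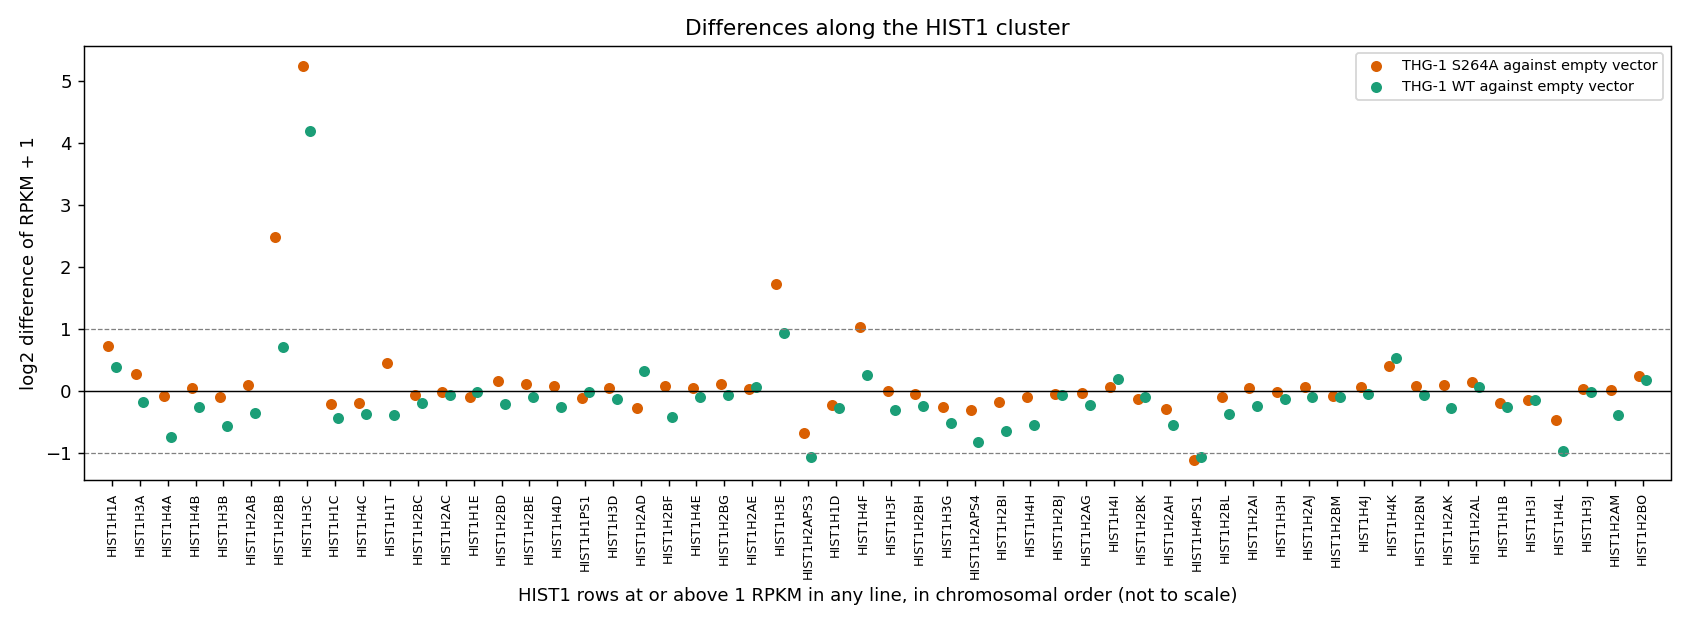
Log2 difference of RPKM + 1 against the empty vector (y axis) for each HIST1 row at or above 1 RPKM in any line, in chromosomal order and not to scale (x axis), for S264A and for WT, 1 library each; dashed lines mark a 2-fold difference. HIST1H3C reaches 5.24 in S264A and 4.19 in WT beside HIST1H2BB at 2.47 and 0.70, while their outer neighbours HIST1H2AB and HIST1H1C lie near 0.

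Stretches of 50 bases in the coding part of HIST1H3C could be set apart from the other histone rows by sequence. None of the 359 windows of 50 bases along its coding part occurred in an annotated transcript of another histone row. The same held for the 329 windows of HIST1H2BB, the 359 of HIST1H3E and the 596 of HIST1H1A. Genes outside the histone rows were not searched. The coding sequence nearest to that of HIST1H3C was that of HIST1H3E, with 87.3% of bases identical, although the proteins are the same. The sources used here state neither the read length nor how reads shared between genes were counted. Whether all reads on HIST1H3C came from that gene can therefore not be told.

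The promoters of these 3 genes are shown because their levels stood apart in S264A. They are RefSeq sequences on GRCh38.p14 from 250 bases before to 50 bases after the gene start, written 5′ to 3′ on the gene's strand. Capitals mark matches to the TATA motif TATAAA, to the CAAT-box motif CCAAT and to the octamer motif ATTTGCAT. Each was searched on both strands, and no matches overlap in these windows.
HIST1H3C, chr6:26045134-26045433, plus strand: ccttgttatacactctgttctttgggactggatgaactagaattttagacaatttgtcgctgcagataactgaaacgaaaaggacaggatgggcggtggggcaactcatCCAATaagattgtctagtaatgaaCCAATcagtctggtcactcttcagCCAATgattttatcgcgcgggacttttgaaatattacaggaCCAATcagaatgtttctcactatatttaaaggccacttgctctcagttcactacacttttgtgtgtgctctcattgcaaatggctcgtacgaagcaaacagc
HIST1H2BB, chr6:26043664-26043963, minus strand: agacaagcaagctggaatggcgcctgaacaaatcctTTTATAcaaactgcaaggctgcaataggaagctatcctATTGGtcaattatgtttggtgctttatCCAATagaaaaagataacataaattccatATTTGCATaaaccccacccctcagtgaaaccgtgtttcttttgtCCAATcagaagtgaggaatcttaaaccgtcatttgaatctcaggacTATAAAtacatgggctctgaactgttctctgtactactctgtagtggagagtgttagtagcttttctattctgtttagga
HIST1H3E, chr6:26223928-26224227, plus strand: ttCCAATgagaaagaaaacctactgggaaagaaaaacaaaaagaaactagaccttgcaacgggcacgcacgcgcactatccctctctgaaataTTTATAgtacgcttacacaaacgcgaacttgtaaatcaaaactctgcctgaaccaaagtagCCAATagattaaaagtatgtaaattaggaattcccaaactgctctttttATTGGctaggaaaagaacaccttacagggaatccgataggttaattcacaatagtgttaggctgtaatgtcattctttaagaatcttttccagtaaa
The HIST1H3C window held 4 matches to CCAAT and 0 to TATAAA. The HIST1H2BB window held 3 matches to CCAAT, 2 to TATAAA and 1 to ATTTGCAT, and the HIST1H3E window 3 to CCAAT and 1 to TATAAA. A match is a description of letters and no evidence of a bound factor.

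Among 66 histone promoters found in RefSeq, 84.8% held CCAAT, against 34.6% of all 35116 promoters of the same length. TATAAA was in 68.2% of histone promoters, against 11.5% of all promoters. The motifs differed by type: CCAAT was in all of the H1, H2A, H2B and H3 promoters but in 23.1% of those of H4. The octamer ATTTGCAT, the site known for the OCT1 factor at H2B genes, was in 77.8% of H2B promoters and 68.8% of H2A promoters, in 0 of the others, and in 1.77% of all promoters. AAACACA, known from H1 promoters, was in all 6 H1 promoters, in 13.6% of histone promoters and in 5.64% of all promoters. Among the H3 promoters 84.6% held TATAAA, and HIST1H3C and HIST1H3G had 0 matches in this window.

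**Figure D4:**
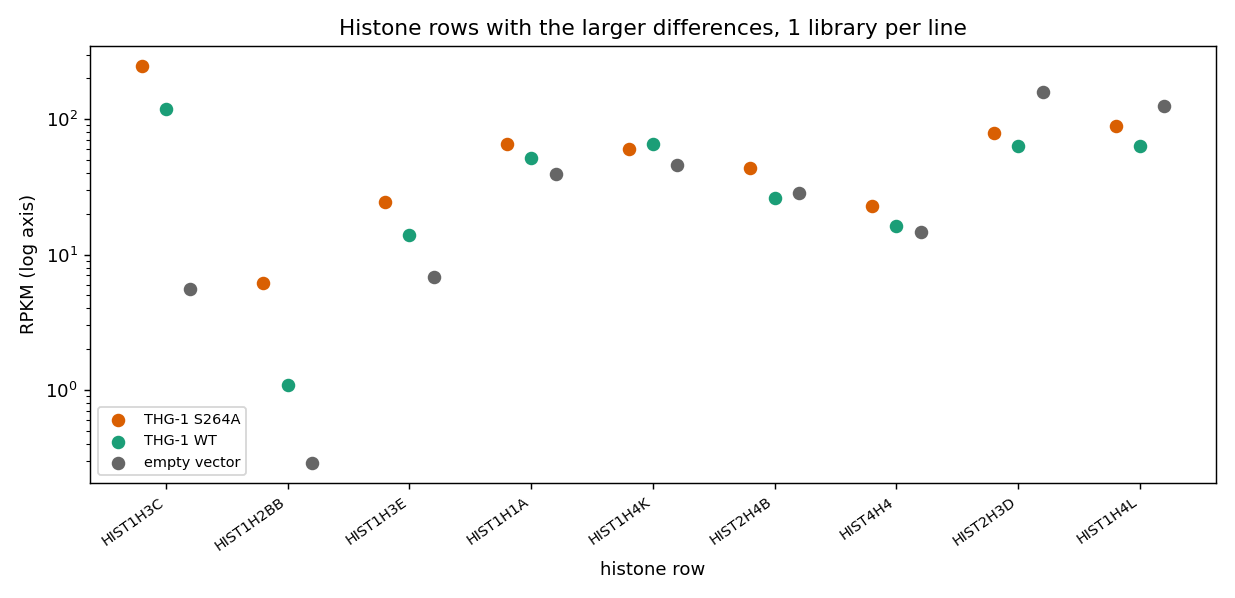
RPKM (y axis, log axis) of 9 histone rows (x axis) in the S264A, WT and empty-vector libraries, 1 point per library. HIST1H3C, HIST1H2BB, HIST1H3E and HIST1H1A are highest in S264A and lowest in the empty vector, and HIST2H3D and HIST1H4L are highest in the empty vector and lowest in WT.

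Of the linker histones, HIST1H1A went against the rest. HIST1H1A encodes H1.1, a subtype found in few tissues, and had 65.7 RPKM (719 reads) in S264A, 51.4 RPKM (511 reads) in WT and 39.3 RPKM (985 reads) in the empty vector. Its ratio to the empty vector was 1.67 (1.51 to 1.84) in S264A and 1.31 (1.17 to 1.46) in WT, below the 2-fold rule in both. HIST1H1B, which encodes H1.5, had 501 RPKM in S264A, 477 in WT and 576 in the empty vector. HIST1H1C, which encodes H1.2, was the largest part of H1 in S264A and in the empty vector, and HIST1H1B in WT. HIST1H1E, which encodes H1.4, was nearly level at 435 RPKM in S264A, 463 in WT and 469 in the empty vector. HIST1H1T, the testis form, had 1.18 RPKM (12 reads) in S264A, 0.217 RPKM (2 reads) in WT and 0.602 RPKM (14 reads) in the empty vector.

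H2A rows ranged from -1.07 to 0.32 on the log2 scale for WT against empty vector, about a sum at -0.21. HIST2H2AA4 was the highest of them, at 984 RPKM in S264A, 854 in WT and 959 in the empty vector. HIST1H2AJ had 377 RPKM in S264A, 336 in WT and 360 in the empty vector, and HIST1H2AE had 337 RPKM in S264A, 342 in WT and 331 in the empty vector. In HIST1H2AE, WT was not the lowest in RPKM as deposited but was with the quantile-normalised values, at the same upper quartile and at the same sum. HIST2H2AB was lowest in WT, with 150 RPKM in S264A, 88.5 in WT and 136 in the empty vector, a ratio of 1.70 (1.52 to 1.90) for S264A against WT. HIST1H2AD gave the lowest log2 difference for S264A against WT, -0.61, with 9.98 RPKM (55 reads) in S264A, 15.8 RPKM (79 reads) in WT and 12.5 RPKM (157 reads) in the empty vector. The pseudogenes HIST1H2APS3 and HIST1H2APS4 rested on few reads, 2 in S264A, 1 in WT and 10 in the empty vector for HIST1H2APS3 and 13, 7 and 40 for HIST1H2APS4 in the same order.

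H2B was spread over many genes of similar level. HIST1H2BK, its highest row by RPKM, made up 10.7% of the H2B sum in S264A, 12.2% in WT and 11.8% in the empty vector. It had 315 RPKM in S264A, 323 in WT and 349 in the empty vector. HIST1H2BE had 305 RPKM in S264A, 265 in WT and 283 in the empty vector. HIST1H2BH had 280 RPKM in S264A, 243 in WT and 290 in the empty vector. Apart from HIST1H2BB, no H2B row passed the 2-fold rule in any comparison. HIST2H2BC, a pseudogene by the annotation, had 1.23 RPKM in S264A from 2 reads.

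By RPKM, H4 was led by 1 row. HIST1H4J made up 34.2% of the H4 sum in S264A, 37.0% in WT and 32.2% in the empty vector, with 957 RPKM in S264A, 887 in WT and 927 in the empty vector. HIST1H4J is 1 of 14 H4 genes that encode the same 103-residue protein. Its coding sequence is identical to that of HIST1H4K, so the lead cannot be placed on 1 gene. In recovered reads HIST2H4A was above it, with 6793 in S264A, 5810 in WT and 20568 in the empty vector. HIST1H4J held 5018, 4225 and 11109 reads in the same order. The lengths fitted to the rows were 1880 bases for HIST2H4A and 374 for HIST1H4J. HIST1H4A had 199 RPKM in S264A, 125 in WT and 211 in the empty vector, so that WT stood alone, with a ratio to the empty vector of 0.591 (0.540 to 0.647). HIST1H4L had 89.5 RPKM (457 reads) in S264A, 63.0 RPKM (292 reads) in WT and 124 RPKM (1451 reads) in the empty vector, and its log2 difference of -0.97 for WT against empty vector lay just short of the 2-fold rule, which it passed with the quantile-normalised values, at the same upper quartile and at the same sum. HIST1H4D had 291 RPKM in S264A, 229 in WT and 277 in the empty vector.

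A few H4 rows were near the limit of detection. HIST1H4F had 1.03 RPKM (6 reads) in S264A, 0.189 RPKM (1 read) in WT and 0 reads in the empty vector, and its ratio for S264A against empty vector had a lower 95% counting limit of 2.69. No fold is given for WT, which was under the floor of 3 reads. Its call in S264A was lost with a pseudocount of 5 RPKM, a filter at 5 RPKM, the quantile-normalised values and the same upper quartile. HIST1H4I, by contrast, was well covered, with 100.3 RPKM in S264A, 109 in WT and 96.6 in the empty vector. The pseudogene HIST1H4PS1 had 2 reads in S264A, 2 in WT and 20 in the empty vector, a ratio of 0.229 (0.0259 to 0.941) for S264A against empty vector and of 0.252 (0.0285 to 1.04) for WT against empty vector.

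In the HIST2 cluster, 12 of 12 rows compared were below 0 on the log2 scale in WT against empty vector. In S264A against empty vector 6 of 13 were. HIST2H3D was lower in both THG-1 lines than in the empty vector. The coding sequences of HIST2H3A and HIST2H3C are identical, so these rows are read as a sum. That sum was 390 RPKM in S264A, 363 in WT and 456 in the empty vector. HIST2H3D, which encodes the H3.2 form of H3, had 78.8 RPKM (454 reads) in S264A, 62.9 RPKM (329 reads) in WT and 158 RPKM (2082 reads) in the empty vector. The ratio was 0.398 (0.353 to 0.447) for WT against empty vector, and 0.499 (0.449 to 0.552) for S264A against empty vector, which on the log2 scale of RPKM + 1 lay just short of the 2-fold rule. HIST2H3A, HIST2H3C and HIST2H3D encode the same protein. The row shared 81.1% of its 50-base windows with other histone rows, among them HIST2H3A, HIST2H3C, HIST2H3PS2 and the pseudogene HIST2H3DP1, so its level is uncertain where shared reads were split.

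Coding sequences were identical within 4 pairs of rows, and the authors' values split each pair unevenly. HIST1H4J stood 15.9 times as high as HIST1H4K in S264A, 13.5 times in WT and 20.3 times in the empty vector. HIST2H2AA4 stood 26.1 times as high as HIST2H2AA3 in S264A, 26.5 times in WT and 18.8 times in the empty vector. For such pairs the sum can be read and the single rows cannot be told apart where a read lies wholly in the coding part. HIST1H4K alone had 60.0 RPKM in S264A, 65.7 in WT and 45.6 in the empty vector, while the sum of HIST1H4J and HIST1H4K was 1017 RPKM in S264A, 953 in WT and 972 in the empty vector. HIST2H2AA3 had 37.6 RPKM in S264A, 32.3 in WT and 51.1 in the empty vector, and the sum with HIST2H2AA4 was 1021, 886 and 1010 RPKM.

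The split between the HIST2 H3 and H4 copies differed by line. HIST2H3A had 176 RPKM in S264A, 210 in WT and 301 in the empty vector, whereas its copy HIST2H3C had 214 RPKM in S264A, 153 in WT and 155 in the empty vector. The single rows thus went in opposite directions in S264A, and their sum was 390.0 RPKM in S264A, 363 in WT and 456 in the empty vector. HIST2H4A had 258 RPKM in S264A, 243 in WT and 341 in the empty vector, and HIST2H4B had 43.7 RPKM in S264A, 26.1 in WT and 28.7 in the empty vector. Their sum was 301 RPKM in S264A, 269 in WT and 370.0 in the empty vector, lowest in WT like that of most histone rows.

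Genes known to give polyadenylated histone mRNA in differentiated cells numbered 7 (HIST1H1C, HIST1H2AC, HIST1H2BC, HIST1H2BD, HIST1H2BK, HIST2H2BE and HIST1H4H). Of these, 0 passed the 2-fold rule in any comparison, where the shares of all genes were 4.53% or less in each direction, so nothing can be read from that count. Their medians were -0.22 for WT against empty vector, -0.10 for S264A against empty vector and 0.22 for S264A against WT. HIST2H2BE had 74.8 RPKM in S264A, 64.2 in WT and 92.6 in the empty vector. Of 4 testis histone genes, HIST1H1T alone reached 1 RPKM in any library. The sources used here do not say whether the libraries were made from polyadenylated RNA, and levels of transcripts without a tail depend on that step.

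Genes outside the clusters that make or use histones were set beside them. Of all genes, 4.53% were higher in WT against empty vector. Of 15 replication-independent histone genes, 11 were compared and 1 was higher there. This was H1F0, the linker histone H1.0 of differentiated cells, with 91.5 RPKM in S264A, 175 in WT and 77.1 in the empty vector. Its log2 difference of 1.17 was 0.91 at the same upper quartile, which ended the call. H2AFY2, a macroH2A gene, was the 1 of 11 higher in S264A against WT, where 1.55% of all genes were higher. H2AFY2 had 12.3 RPKM in S264A, 5.04 in WT and 7.56 in the empty vector. Counts of 1 say nothing of the list as a whole. Of the H3.3 genes, H3F3A was nearly level at 51.5 RPKM in S264A, 49.0 in WT and 52.1 in the empty vector. H3F3B had 48.1 RPKM in S264A, 54.5 in WT and 64.1 in the empty vector, with log2 differences of -0.41 for S264A and -0.23 for WT against empty vector. H2AFZ, the gene of H2A.Z, had 58.7 RPKM in S264A, 38.2 in WT and 52.1 in the empty vector.

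Of 24 genes of histone transcription and mRNA processing in the table, SNRPB was higher in both THG-1 lines against the empty vector. SLBP was higher in S264A against WT, where 22 were compared. Of all genes, 4.53% were higher in WT against empty vector, 2.99% in S264A against empty vector and 1.55% in S264A against WT. With 1 gene higher in each comparison, nothing can be read from these counts about the list. SLBP, whose product binds the stem-loop, had 17.9 RPKM in S264A, 8.10 in WT and 15.2 in the empty vector, and was thus lowest in WT like the histone sums. SNRPB, a core protein of spliceosomal and histone-processing particles, had 100.3 RPKM in S264A, 114 in WT and 42.4 in the empty vector. NPAT, the coactivator of histone transcription, had 4.98 RPKM in S264A, 3.67 in WT and 4.62 in the empty vector. Of 20 histone chaperones, 0 passed the 2-fold rule in any comparison, a count close to what the shares over all genes give.

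Genes of S phase were examined because histone mRNA is made then, and the shares of all genes given above apply to their counts too. Of 30 such genes 0 passed the 2-fold rule in any comparison, with medians of -0.17 for WT against empty vector, -0.06 for S264A against empty vector and 0.10 for S264A against WT. PCNA, the clamp of the replicating polymerase, had 126 RPKM in S264A, 96.3 in WT and 73.6 in the empty vector. Of 18 genes of G2 and M phase 0 passed the rule, with medians of -0.45 for WT against empty vector, -0.25 for S264A against empty vector and 0.13 for S264A against WT. TOP2A, the topoisomerase of dividing cells, had 49.2 RPKM in S264A, 32.0 in WT and 55.3 in the empty vector. The part of cell cycle in the histone sums was not tested.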

How the data were processed

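RNA of 3 lines, 1 library each, was sequenced on an Illumina NextSeq500, per the labels. The authors deposited RPKM per gene and library, per the file headers, in a first column, and in a second column RPKM that, tested on the values, is quantile-normalised across the libraries. The first was used, the second as an alternative. Per the submitters' processing notes the build was hg19. For the aligner, annotation, strand setting and treatment of shared reads, the sources used here give nothing.

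Whole reads were recovered for the 81 histone rows above 0, within 0.002 reads, from the RPKM steps. The gene length was that of GENCODE for 12 rows and the smallest fitting length for 69, which can understate reads and widen intervals. Ratios of single rows carry exact Clopper-Pearson 95% intervals. Intervals of sums are by the delta method on Poisson reads. Intervals and the floor of 3 reads cover counting error only, since reads are not independent molecules. Differences were log2((RPKM a + 1)/(RPKM b + 1)) for genes at or above 1 RPKM in 1 of the libraries compared, called from 2-fold; 1 row per symbol (55773 symbols, highest mean) gave the shares over all genes. No test was run, for want of replicates. The recovery of reads was tested on simulated data.

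Named rows were the 6 highest and 6 lowest of each comparison, the 3 highest by mean level of each type, those with the largest share of a type, identical copies and the 5 rows nearest to HIST1H3C. In other lists the 2 genes with the largest differences were named, with SLBP, NPAT, PCNA, H3F3A, H3F3B and H2AFZ. HIST1H2AB, HIST1H1C beside HIST1H3C, and a few further rows were named after their values were seen. The members and lists were chosen with earlier results of these data known. Alternatives were pseudocounts of 0.1 and 5 RPKM, no filter or a filter at 5 RPKM, the quantile-normalised column, scaling to the same upper quartile or sum, sums without the highest row, and means of log2 values. Lengths, strand, order and transcripts came from GENCODE release 29 and promoters from RefSeq on GRCh38.p14, neither of which is the authors' build. Python 3.11.15, numpy 2.4.6, pandas 2.3.3, scipy 1.17.1 and matplotlib 3.10.9 were used.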

Additional observations from a re-analysis of the deposited data

How the results depend on the processing

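No paired analysis was possible because each line has 1 library, and for the same reason no library could be left out. In WT against empty vector, 3 rows were higher with a pseudocount of 0.1 RPKM (HIST1H2BB and HIST1H3E beside HIST1H3C, which alone was higher at 1 RPKM). In that comparison 1 row was lower in place of 3 with a pseudocount of 5 RPKM or a filter at 5 RPKM (HIST2H3D), and 6 were lower at the same upper quartile, with HIST1H4A, HIST1H4L and HIST1H2APS4 added. In S264A against empty vector, 3 rows in place of 1 were lower with a pseudocount of 0.1 RPKM, 0 with a pseudocount of 5 RPKM or a filter at 5 RPKM, and 2 at the same upper quartile or sum, HIST2H3D being the added row. HIST1H4F, among the 4 higher rows, was not called there with a pseudocount of 5 RPKM, a filter at 5 RPKM, quantile-normalised RPKM or the same upper quartile. In S264A against WT, 4 rows in place of 2 were higher with a pseudocount of 0.1 RPKM (HIST1H1T and HIST1H4F added) and 1 with 5 RPKM (HIST1H3C). HIST1H4L was lower in WT against empty vector with the quantile-normalised RPKM and at the same sum as well. These counts moved with the whole table: of all genes in WT against empty vector, 7.25% were higher and 4.10% lower with a pseudocount of 0.1 RPKM, and 1.38% higher and 0.150% lower with 5 RPKM. In S264A against empty vector the shares were 5.79% and 2.05% with 0.1 RPKM and 0.708% and 0.0749% with 5 RPKM, and in S264A against WT 4.22% and 4.29% with 0.1 RPKM and 0.215% and 0.522% with 5 RPKM, higher before lower. With a filter at 5 RPKM, 1.13% were lower in WT against empty vector and 0.429% in S264A against empty vector. HIST1H3C was called higher in all 3 comparisons under all of these settings. The median of the histone rows in WT against empty vector, -0.20, was -0.32 with quantile-normalised RPKM, -0.46 at the same upper quartile and -0.35 at the same sum. That in S264A against empty vector, 0.02, was -0.19 at the same upper quartile. That in S264A against WT, 0.22, was 0.35 with quantile-normalised RPKM and 0.33 at the same sum. For the log2 ratio of sums, WT against empty vector, with the quantile-normalised RPKM it was -0.37 for all rows, -0.37 for H1, -0.43 for H2A, -0.25 for H2B, -0.37 for H3 and -0.44 for H4. With libraries at the same upper quartile it was -0.49 for all rows, -0.51 for H1, -0.47 for H2A, -0.43 for H2B, -0.53 for H3 and -0.52 for H4. With libraries at the same sum it was -0.38 for all rows, -0.40 for H1, -0.36 for H2A, -0.32 for H2B, -0.42 for H3 and -0.42 for H4. Without the highest row of the type it was -0.16 for H1, -0.20 for H3 and -0.37 for H4. With the mean over rows of log2(RPKM + 1) it was -0.14 for all rows, -0.13 for H1, -0.25 for H2A, -0.13 for H2B and 0.07 for H3. For the log2 ratio of sums, S264A against empty vector, with the quantile-normalised RPKM it was -0.05 for all rows, -0.03 for H2A and -0.09 for H4. With libraries at the same upper quartile it was -0.23 for all rows, -0.37 for H1, -0.18 for H2A, -0.21 for H2B, -0.19 for H3 and -0.24 for H4. With libraries at the same sum it was -0.07 for all rows, -0.21 for H1, -0.02 for H2A, -0.05 for H2B, -0.03 for H3 and -0.08 for H4. Without the highest row of the type it was 0.04 for H3 and -0.08 for H4. With the mean over rows of log2(RPKM + 1) it was 0.08 for all rows, 0.04 for H1, -0.07 for H2A, 0.06 for H2B, 0.38 for H3 and 0.03 for H4. For the log2 ratio of sums, S264A against WT, with the quantile-normalised RPKM it was 0.33 for all rows, 0.20 for H1, 0.40 for H2A, 0.24 for H2B, 0.39 for H3 and 0.35 for H4. With libraries at the same upper quartile it was 0.26 for all rows, 0.14 for H1, 0.28 for H2A, 0.22 for H2B, 0.34 for H3 and 0.28 for H4. With libraries at the same sum it was 0.32 for all rows, 0.19 for H1, 0.34 for H2A, 0.28 for H2B, 0.40 for H3 and 0.34 for H4. Without the highest row of the type it was 0.02 for H1, 0.25 for H3 and 0.28 for H4. With the mean over rows of log2(RPKM + 1) it was 0.22 for all rows, 0.17 for H1, 0.18 for H2A and 0.28 for H4. The sign of the H3 value thus turned for WT against empty vector with the mean of log2 values, which gives each row the same weight and so gives HIST1H3C more, and values near 0 for S264A against empty vector took either sign. Of the named single rows called at the main setting, 0 changed sign with the quantile-normalised RPKM, the same upper quartile or the same sum. Pseudocounts and filters cannot change the sign of a row. No sum by type reached the 2-fold rule, so the sums could not enter this count. The alternatives for sums by cluster and for called genes of the other lists were chosen after seeing the data. Except for the settings whose own construction shows it, the cause of these shifts was not tested. Counts of 12 reads or fewer, as for HIST1H4F, HIST1H2APS3 and HIST1H1T in some libraries, limit what can be read from those rows.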
